A study of Mus musculus with 6 samples.

Results

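The nuclear genes for the subunits of the mitochondrial respiratory chain and the ATP synthase were examined in mouse haematopoietic stem cells (HSCs) sorted by their surface level of CD38. They were chosen by symbol among protein-coding genes: Nduf followed by a, b, c, s, v or ab and a number (complex I), Sdha to Sdhd (complex II), Uqcr names (complex III), Cox4 to Cox8 names (complex IV) and Atp5 names (complex V). The symbol rule itself used no measured value, but the set was chosen with earlier results of these data known. The rule found 85 of the 49585 genes counted. Of these 85 genes, 38 belong to complex I, 4 to complex II, 8 to complex III, 18 to complex IV and 17 to complex V. Enough reads for testing were present for 80 of them, out of 14785 genes that passed the same filter on low counts. The symbol rule leaves out Atpif1, the inhibitory factor of the ATP synthase, Usmg5, a small subunit of it, and Cyc1, the cytochrome c1 of complex III, whose names follow other patterns.

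The respiratory chain lies in the inner mitochondrial membrane. Complexes I and II pass electrons from NADH and succinate to coenzyme Q, complex III passes them to cytochrome c, and complex IV passes them to oxygen, while complexes I, III and IV pump protons whose return through complex V drives ATP synthesis. Complexes I, III, IV and V also hold subunits encoded in the mitochondrial genome, and complex II is wholly nuclear. Dormant HSCs are known to depend on glycolysis more than their active progeny, and CD38 is a surface enzyme that consumes NAD, the product of the complex I reaction.

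The study compared 2 populations of HSCs by bulk RNA sequencing, to relate CD38 to stem cell dormancy. All cells came from the bone marrow of untreated C57BL/6 mice aged 8 to 16 weeks, and no engineered allele or agent is given for either group. HSCs were gated as lineage-negative cells positive for Kit, Sca-1, CD150 and CD201 and negative for CD48 and CD34. The CD38 pos libraries hold the cells with high surface CD38 and the CD38 neg libraries those with low surface CD38, with 3 libraries per population matched in 3 pairs. Each library was made from the cells of 10 pooled mice, so the spread between libraries is a spread between pools, and whether paired libraries share their mice is not given in the sources used here. In such bulk samples, fewer cells expressing a gene and less RNA of that gene per cell cannot be told apart.

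The libraries held 16771180 to 18558610 gene counts, so that 3 reads corresponded to 0.166 to 0.183 CPM (reads of a gene scaled to a common library size) in a library. Levels are CPM after TMM scaling between libraries. Cd38 transcripts, the check of the sort, measured 37, 46.3 and 58.3 CPM in the CD38 pos libraries of pairs 1, 2 and 3 and 24.2, 35.6 and 23.9 CPM in the CD38 neg libraries. Cd38 was higher in CD38 pos in 3 of 3 pairs, although its adjusted p was 0.893 (edgeR's quasi-likelihood test with Benjamini-Hochberg adjustment over all genes tested). The stem cell markers Slamf1, Procr, Kit, Ly6a, Mecom, Hlf and Fgd5 all passed the filter. The 14 markers of neutrophils and their precursors also passed, and they held 7.84% to 15.6% of all counts. The CD38 pos library of pair 2 stood apart in its mitochondrially encoded subunits, which summed to 8394 CPM there and to 21716 to 41203 CPM in the other 5 libraries.

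The 85 genes together took 1.58% to 1.78% of the counts of a library. Their summed level was 18340, 17359 and 14915 CPM in the CD38 pos libraries of pairs 1, 2 and 3, a mean of 16871 ± 1764 (SD, n = 3). It was 16987, 15482 and 17893 CPM in the CD38 neg libraries, a mean of 16787 ± 1218 (SD, n = 3). The sum was higher in CD38 pos in pairs 1 and 2 and lower in pair 3, and the populations overlapped. Such a sum is weighted by the genes with the most reads. In pair 2 the median log2 difference of the 80 subunits tested was -0.15, with 34 higher in CD38 pos.

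**Figure D1:**
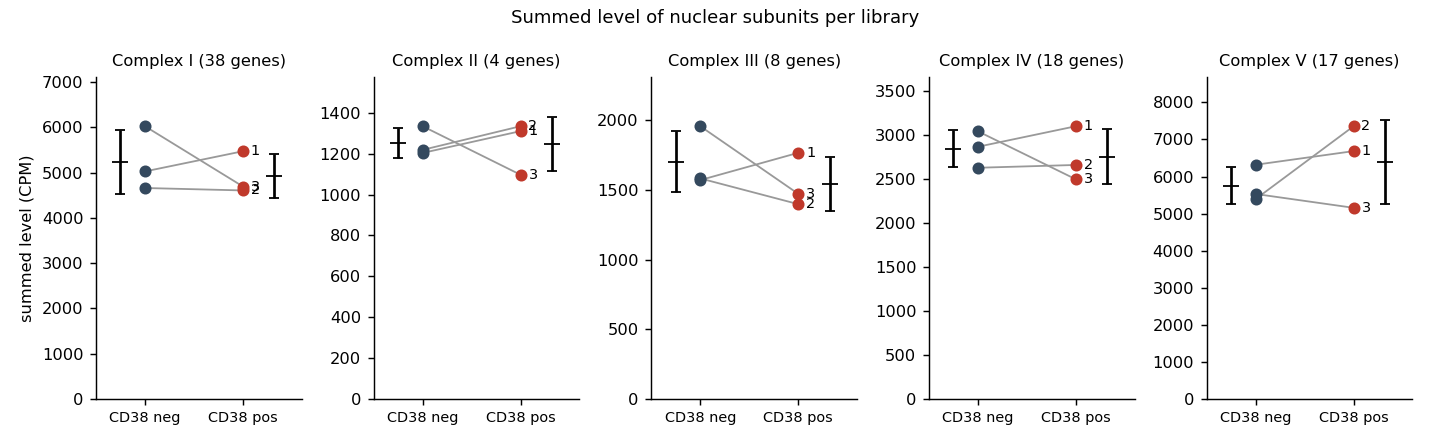
Summed level in CPM of the subunits of each complex in every library, with the CD38 neg library on the left and the CD38 pos library on the right of each panel, a line joining each pair, the pair number beside the CD38 pos point, and the mean ± SD of 3 libraries as bars. In each of the 5 complexes the populations overlap, and the line of pair 3 falls from CD38 neg to CD38 pos in every panel.

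By complex, the sums for complex I were 5473, 4606 and 4693 CPM in the CD38 pos libraries of pairs 1, 2 and 3 and 5026, 4660 and 6026 CPM in the CD38 neg libraries. Complex V, the group with the most reads, gave 6686, 7358 and 5155 CPM in CD38 pos and 6317, 5390 and 5529 CPM in CD38 neg. The widest gap within a pair for complex I was in pair 3 (log2 ratio -0.36). For complex V it was in pair 2 (0.45), where CD38 pos was the higher library. The genes of complex V did not share that gap: their median log2 difference in pair 2 was 0.01, with 10 higher and 7 lower. Atp5a1 and Atp5b, with the most reads, were at 1894 and 2123 CPM in CD38 pos and 1103 and 1300 CPM in CD38 neg there. Complex II ranged from 1097 to 1335 CPM, complex III from 1398 to 1958 CPM and complex IV from 2498 to 3103 CPM over the 6 libraries. Each of the 5 sums was higher in CD38 pos in pair 1 and lower in pair 3, while pair 2 was higher for complexes II, IV and V and lower for complexes I and III. The mean log2 ratio over pairs was 0.14 for complex V and -0.01 without pair 2; for complexes I, II, III and IV it was -0.08, -0.01, -0.14 and -0.05. For complex III it was -0.30 without pair 1 and -0.01 without pair 3.

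No subunit passed an adjusted p of 0.05, by edgeR's quasi-likelihood test with the pair as a block and Benjamini-Hochberg adjustment over all 14785 genes; 0.0135% of all genes passed. The smallest adjusted p among the subunits was 0.925. At an unadjusted p under 0.05 there were 2 subunits of 80, both lower in CD38 pos, where 5.08% of all genes had such a p, 2.47% higher and 2.61% lower in CD38 pos. DESeq2 and limma-voom likewise called no subunit at an adjusted p of 0.05, and each found 1 at an unadjusted p under 0.05, where 4.41% of all genes had such a p with DESeq2 and 5.47% with limma-voom. No subunit had its 3 CD38 pos libraries all above the CD38 neg libraries (3.33% of all genes did), and none had them all below (3.19% of all genes did).

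The log2 fold change (CD38 pos over CD38 neg) was positive for 23 of the 80 subunits, against 50.1% of all genes tested. Its median was -0.12 over the subunits and 0.00 over all genes, with a range of -0.70 to 0.32 for the subunits. The estimates were tight beside those of most genes: the median standard error was 0.20 for the subunits and 0.26 for all genes, at median levels of 159 and 16.2 CPM. The 95% interval lay within a 2-fold change either way (-1 to 1 on the log2 scale) for 75 of 80 subunits, against 66.6% of all genes. It lay within 1.5-fold for 41 of 80, against 23% of all genes. The 5 subunits whose intervals passed the 2-fold bound were Ndufb4, Uqcrh, Cox4i2, Cox6a2 and Atp5l, all on the side of lower levels in CD38 pos.

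**Figure D2:**
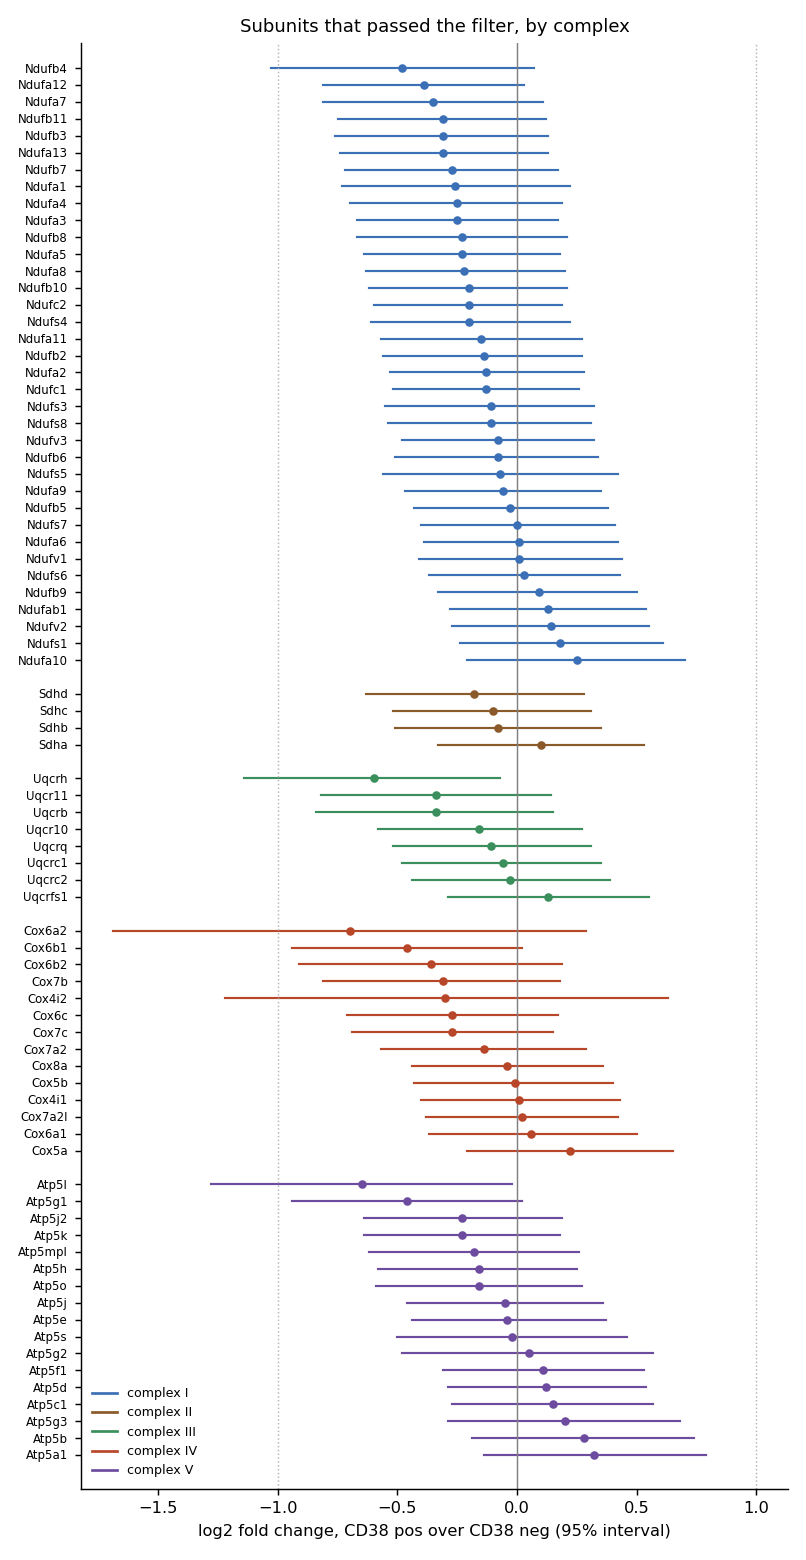
Log2 fold change of CD38 pos over CD38 neg (points) with its 95% interval (lines) for the subunits that passed the filter (1 is not shown), grouped by complex and ordered by value, with dotted lines at -1 and 1. The intervals of Uqcrh and Atp5l are the ones that leave out 0, and both subunits have an adjusted p above 0.9 in edgeR's quasi-likelihood test.

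Within single pairs, most subunits shared a direction. In pair 1, 66 of 80 subunits were higher in the CD38 pos library, against 50.3% of all genes. In pair 3 it was 5 of 80, against 52.6% of all genes, and in pair 2 it was 34 of 80, against 48.7%. The subunits' median log2 difference was 0.13, -0.15 and -0.34 in pairs 1, 2 and 3, where the median of all genes was 0.00, -0.02 and 0.03. Higher in pair 1 and lower in pairs 2 and 3 was the order for 37 of 80 subunits, against 16.1% of all genes. Higher in pairs 1 and 2 and lower in pair 3 was the order for 26 of 80, against 11.1% of all genes. All 3 pairs gave the same direction for 10 subunits, of which 2 were higher in CD38 pos (13.2% of all genes were) and 8 were lower (11.3% of all genes were). The 5 subunits higher in CD38 pos in pair 3 were Atp5a1, Atp5b, Atp5s, Cox7a2l and Ndufab1.

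**Figure D3:**
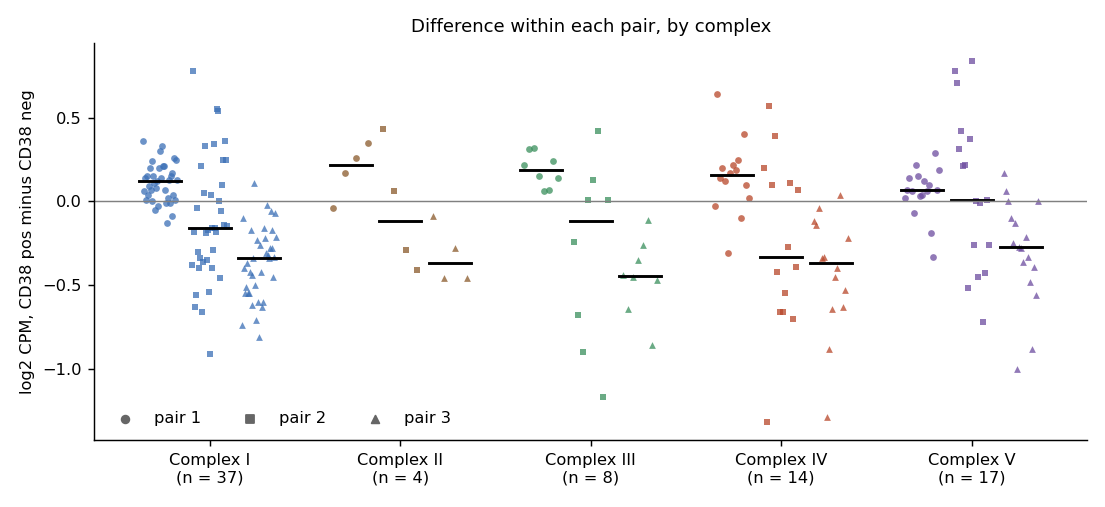
Difference in log2 CPM (CD38 pos minus CD38 neg, prior count 2) within pair 1 (circles), pair 2 (squares) and pair 3 (triangles) for each subunit that passed the filter, by complex, with the median as a bar. Medians lie above 0 in pair 1 and below 0 in pair 3 for all 5 complexes, and pair 2 has the widest scatter.

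Promoters were read for the subunits from RefSeq (build GRCm38.p6), as windows from 250 bases before to 50 bases after a transcript start. Such windows were found for 67 of the 85 genes, 72 windows in all. They were searched on both strands for the core letters of 3 factors known to bind promoters of respiratory genes: GCATGCGC for NRF1, CCGGAAG for the ETS family that includes the GABP alpha subunit, and AAGATGGC for YY1. The last holds a start codon, so a match after the transcript start can be coding sequence. The NRF1 letters were in 10 of 72 windows (13.9%), against 4.94% of the windows of all genes tested and 2.71% of all 32851 windows. The ETS letters were in 16 windows (22.2%), against 16.9% and 8.86%, and the YY1 letters in 9 windows (12.5%), against 4.22% and 2.75%. Among the subunits' YY1 matches, only that of Atp5j lay before the transcript start, and the others all lay after it. These shares are a description: a match is not a bound site.

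The 120 bases before the start are shown for 6 subunits, in the direction of transcription, with a match in capitals. Sdhb, the iron-sulphur subunit of complex II, shows the NRF1 letters on a single strand, with a log2 fold change near 0. Atp5k and Ndufs3 were lower in CD38 pos in every pair, but barely so in some. The log2 difference was -0.01 in pair 2 for Atp5k, and -0.01 and 0.00 in pairs 1 and 2 for Ndufs3. Uqcrh and Cox6b1 had some of the smallest p-values, and Atp5b was higher in CD38 pos in every pair. Sdhb lies on the plus strand at chr4:140961151-140961270 and Atp5k on the minus strand at chr5:108434400-108434519, both with the NRF1 letters, which in Atp5k read on both strands at overlapping positions. Ndufs3 (minus strand, chr2:90904722-90904841), Uqcrh (minus strand, chr4:116075071-116075190) and Cox6b1 (minus strand, chr7:30626115-30626234) hold the ETS letters, which in Uqcrh and Cox6b1 appear reversed and complemented. The windows of Sdhb, Atp5k and Ndufs3 also hold ETS letters after the start, outside the bases shown. In Atp5b (plus strand, chr10:128083187-128083306) none of these letters is in the window. Ndufb2, Ndufc2 and Ndufs5, which were lower in CD38 pos in every pair, also hold none of them. Atp5l and Ndufc1, likewise lower in every pair, hold NRF1 and ETS letters and YY1 letters, respectively. No window was found for Cox6a2, also lower in every pair, or for Atp5a1, which was higher in every pair. Whether the letters go with a direction was not tested.
Sdhb: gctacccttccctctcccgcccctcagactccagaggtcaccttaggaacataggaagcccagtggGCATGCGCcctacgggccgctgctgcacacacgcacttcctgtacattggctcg
Atp5k: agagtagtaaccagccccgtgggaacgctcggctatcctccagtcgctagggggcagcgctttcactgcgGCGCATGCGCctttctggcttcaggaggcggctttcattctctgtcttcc
Ndufs3: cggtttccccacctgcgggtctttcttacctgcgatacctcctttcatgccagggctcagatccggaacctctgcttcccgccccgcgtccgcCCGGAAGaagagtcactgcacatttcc
Uqcrh: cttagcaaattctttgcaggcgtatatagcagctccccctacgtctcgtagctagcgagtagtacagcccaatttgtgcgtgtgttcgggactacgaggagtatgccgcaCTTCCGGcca
Cox6b1: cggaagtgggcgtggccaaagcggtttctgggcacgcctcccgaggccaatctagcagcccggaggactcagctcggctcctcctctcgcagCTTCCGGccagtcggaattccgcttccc
Atp5b: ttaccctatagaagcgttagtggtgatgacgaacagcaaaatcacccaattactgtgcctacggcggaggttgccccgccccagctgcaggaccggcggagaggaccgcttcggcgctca

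In complex I, 37 of 38 subunits passed the filter, none passed an adjusted p of 0.05 and none had an unadjusted p under 0.05. Its 7 nuclear core subunits, which hold the flavin, the iron-sulphur clusters and the quinone site, had a median log2 fold change of 0.01, with 5 positive and 2 negative values. The other 30 subunits tested, which surround the core and are needed for assembly and stability, had a median of -0.20, with 5 positive and 25 negative values. The core genes have longer transcripts (median 1623 bases against 748), and the differences moved with transcript length, as described further on. In pair 3 all 7 core genes and 29 of the other 30 were lower in CD38 pos.

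Among the core genes, Ndufv1, which binds NADH and the flavin, measured 181, 189 and 137 CPM in the CD38 pos libraries of pairs 1, 2 and 3 and 180, 147 and 171 CPM in the CD38 neg libraries. These overlap, with CD38 pos the higher library in pair 2 and the lower one in pair 3. Its log2 fold change was 0.01 (SE 0.20, 95% interval -0.41 to 0.44). Ndufs1, the largest iron-sulphur subunit, measured 228, 229 and 193 CPM in CD38 pos and 225, 156 and 196 CPM in CD38 neg, so that only pair 2 gave a clear gap, with a log2 fold change of 0.18 (SE 0.20). Ndufs7, at the quinone site, had a log2 fold change of 0.00, and Ndufv2, an iron-sulphur subunit next to the flavin, one of 0.14. Ndufs8, another iron-sulphur subunit, and Ndufs3, which joins the quinone site to the rest of the matrix arm, both had log2 fold changes of -0.11. Ndufs3 was at 39.4, 38.2 and 38.5 CPM in CD38 pos and 39.5, 38.3 and 48.5 CPM in CD38 neg, so that the gap was wide only in pair 3.

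Of the accessory subunits, Ndufa10 had the largest positive value, at 184, 226 and 166 CPM in CD38 pos and 177, 132 and 177 CPM in CD38 neg. This subunit of the membrane arm resembles nucleoside kinases. Its CD38 pos library was above its pair mate in pair 2 by 0.78 on the log2 scale and within 0.10 of it elsewhere, and its log2 fold change of 0.25 had an unadjusted p of 0.265. It was -0.02 without pair 2. At the other end, Ndufb4, a small subunit of the membrane arm, measured 35.5, 16.7 and 24.7 CPM in CD38 pos and 28.9, 31.6 and 43.4 CPM in CD38 neg. It was the higher in CD38 pos in pair 1 and the lower in the other pairs, with a log2 fold change of -0.48 (SE 0.26) and an unadjusted p of 0.0835. Ndufb2, Ndufc1, Ndufc2 and Ndufs5 were lower in CD38 pos in all 3 pairs, by at most 0.31 in any pair. Ndufab1, the mitochondrial acyl carrier protein, was 1 of the 5 subunits above 0 in pair 3, with a log2 fold change of 0.13.

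Per length of annotated exons, Ndufa1, a short subunit of the membrane arm, had the highest level in complex I, at 276 ± 65.7 CPM per kb (SD over 6 libraries). With the length of the principal transcript in place of all exons, Ndufa4 had the highest, at 520 CPM per kb; it is named as a complex I subunit and has since been assigned to complex IV. Ndufa4 was at 374, 233 and 269 CPM in CD38 pos and 326, 308 and 394 CPM in CD38 neg, again higher in CD38 pos in pair 1 and lower in pairs 2 and 3. Its hypoxia-inducible relative Ndufa4l2 was barely detected, with 38 reads over all libraries, and it did not pass the filter.

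In complex II, succinate dehydrogenase, all 4 subunits passed the filter and their unadjusted p-values were 0.42 or more. Sdha, the flavoprotein that oxidises succinate, measured 578, 766 and 523 CPM in the CD38 pos libraries of pairs 1, 2 and 3 and 595, 567 and 557 CPM in the CD38 neg libraries. It was highest in the CD38 pos library of pair 2, and the other 5 values lay within 523 to 595 CPM. Sdhb, the iron-sulphur subunit, had a log2 fold change of -0.08. The membrane anchors Sdhc and Sdhd had values of -0.10 and -0.18. Sdhd was at 350, 221 and 266 CPM in CD38 pos and 275, 294 and 366 CPM in CD38 neg, higher in pair 1 and lower in the other pairs. Per length of exons, Sdhd was the highest of the 4 at 240 ± 44.2 CPM per kb and Sdhc the lowest at 30.1 ± 5.51 CPM per kb (SD over 6 libraries).

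In complex III all 8 subunits passed the filter, and all 8 were higher in CD38 pos in pair 1 and lower in pair 3. The gene with the smallest unadjusted p of the whole set was Uqcrh, the acidic hinge protein that sits beside cytochrome c1. Uqcrh measured 245, 120 and 178 CPM in the CD38 pos libraries of pairs 1, 2 and 3 and 207, 271 and 324 CPM in the CD38 neg libraries. The CD38 pos library was the higher of its pair in pair 1 and the lower in pairs 2 and 3, and the populations overlapped. The log2 fold change was -0.60 (SE 0.25, 95% interval -1.14 to -0.07), with an unadjusted p of 0.0306 and an adjusted p of 0.925 in edgeR's quasi-likelihood test. Leaving out a pair in turn gave -0.31 to -1.02, and without pair 1 the value was -1.02.

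The Rieske iron-sulphur subunit Uqcrfs1 was at 302, 360 and 281 CPM in CD38 pos and 288, 269 and 302 CPM in CD38 neg. It was the 1 complex III gene with a positive log2 fold change, 0.13 (SE 0.20), with its widest gap in pair 2. The core subunits Uqcrc1 and Uqcrc2 had values of -0.06 and -0.03. Of the small subunits, Uqcrb, which lies near a quinone site, measured 250, 114 and 156 CPM in CD38 pos and 200, 213 and 213 CPM in CD38 neg. Uqcr11, Uqcrb, Uqcr10 and Uqcrq had log2 fold changes of -0.34, -0.34, -0.16 and -0.11. Per length of exons, Uqcr10 had the highest level of complex III, 235 ± 46 CPM per kb, and Uqcrq the lowest, 61.3 ± 10.5 CPM per kb (SD over 6 libraries). With the principal transcript's length, the highest was Uqcrh at 410 CPM per kb.

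In complex IV, cytochrome c oxidase, 14 of 18 subunits passed the filter and 4 of the 14 had a positive log2 fold change. Cox4i1, the broadly expressed form of its largest nuclear subunit, had the highest level per length of exons in the complex, 410 ± 30.5 CPM per kb (SD over 6 libraries). Cox4i1 measured 595, 672 and 647 CPM in CD38 pos and 609, 586 and 705 CPM in CD38 neg, with the populations interleaved and a log2 fold change of 0.01 (SE 0.19, 95% interval -0.40 to 0.43). Cox5a and Cox5b, which flank the catalytic core, had log2 fold changes of 0.22 and -0.01. Cox5a was at 390, 429 and 307 CPM in CD38 pos and 356, 288 and 316 CPM in CD38 neg, with its widest gap in pair 2.

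Cox6b1, which faces the intermembrane space where cytochrome c docks, had the smallest p of complex IV. It measured 278, 153 and 161 CPM in the CD38 pos libraries of pairs 1, 2 and 3 and 247, 241 and 297 CPM in the CD38 neg libraries. As with Uqcrh, it was higher in CD38 pos in pair 1 and lower in pairs 2 and 3. The log2 fold change was -0.46 (SE 0.22, 95% interval -0.94 to 0.02) with an unadjusted p of 0.0601. Cox7b, Cox6c and Cox7c, small membrane-spanning subunits, had values of -0.31, -0.27 and -0.27 with the same order over the pairs.

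Several complex IV subunits and the c-ring of the ATP synthase exist as isoforms of separate genes, and their shares were computed per length of exons within each library. The broadly expressed form dominated the Cox4, Cox6a, Cox6b, Cox7b and Cox8 families. Cox4i2, known as a lung and hypoxia-linked form, made up 0.945% of the Cox4 family on average (0.517% to 1.69% over 6 libraries). Cox6a2, a heart and muscle form, made up 0.697% of the Cox6a family and was lower in CD38 pos in all 3 pairs, at 0.607 to 2.34 CPM against 1.56 to 2.92 CPM. Its 11 to 49 reads per library gave a wide 95% interval, -1.69 to 0.29. Cox6b2, a testis form, was the most abundant of the restricted forms, at 4.84% of the Cox6b family (3.79% to 5.64%), or 7.75% with the length of the principal transcript.

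The remaining restricted forms were at or near the limit of detection. The heart and muscle form Cox7a1 had 39 reads over all libraries and the testis form Cox7b2 had 11. Cox8b, another heart and muscle form, and Cox8c, another testis form, had 0 reads in every library, below the 0.166 to 0.183 CPM that 3 reads would give; the limit covers counting error only. The exception to dominance by a single gene was the Cox7a family, in which Cox7a2 held 54.3% and Cox7a2l, a factor that joins complexes III and IV, held 45.5%. The share of Cox7a2 was 65.8%, 46.9% and 46% in the CD38 pos libraries of pairs 1, 2 and 3 and 60.2%, 53.4% and 53.6% in the CD38 neg libraries. It was therefore higher in CD38 pos in pair 1 and lower in the other pairs.

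In complex V, the ATP synthase, all 17 genes passed the filter, and their log2 fold changes ran from -0.65 for Atp5l to 0.32 for Atp5a1. Atp5a1 and Atp5b, the alpha and beta subunits that carry the nucleotide sites, were the 2 subunits of the whole set that were higher in CD38 pos in all 3 pairs. Atp5a1 measured 1235, 1894 and 1056 CPM in the CD38 pos libraries of pairs 1, 2 and 3 and 1219, 1103 and 938 CPM in the CD38 neg libraries. Atp5b measured 1761, 2123 and 1133 CPM in CD38 pos and 1678, 1300 and 1090 CPM in CD38 neg. Both gaps were narrow outside pair 2, at 0.02 and 0.17 for Atp5a1 and 0.07 and 0.06 for Atp5b on the log2 scale, against 0.78 and 0.71 in pair 2. The log2 fold changes were 0.32 (SE 0.22, unadjusted p 0.161) for Atp5a1 and 0.28 (SE 0.22, unadjusted p 0.223) for Atp5b, and without pair 2 they were 0.09 and 0.06.

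Atp5c1, the gamma subunit that turns inside the head, was at 752, 757 and 700 CPM in CD38 pos and 684, 610 and 701 CPM in CD38 neg, with a log2 fold change of 0.15 (SE 0.20). Atp5d, the delta subunit of the central stalk, had a value of 0.12 and Atp5e, the epsilon subunit, one of -0.04. Of the peripheral stalk, Atp5f1, Atp5h, Atp5j and Atp5o had log2 fold changes of 0.11, -0.16, -0.05 and -0.16. These fitted values thus had no common sign, although all these peripheral stalk genes were higher in CD38 pos in pair 1 and lower in pair 3. Atp5mpl and Atp5j2, small membrane subunits, had values of -0.18 and -0.23, and Atp5s, a coupling factor, one of -0.02.

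Atp5l, subunit g at the dimer interface, was the other gene with an unadjusted p under 0.05. It measured 6.77, 3.68 and 4.52 CPM in the CD38 pos libraries of pairs 1, 2 and 3 and 8.52, 6.12 and 8.44 CPM in the CD38 neg libraries. It was lower in CD38 pos in every pair, and the populations overlapped by a single CD38 pos library, that of pair 1. The log2 fold change was -0.65 (SE 0.29, 95% interval -1.28 to -0.02), with an unadjusted p of 0.0438 and an adjusted p of 0.926 in edgeR's quasi-likelihood test. This value is uncertain, since 68.5% of the 50-base windows of its principal transcript also occur in other annotated genes, 12 of them pseudogenes. Atp5l had the lowest level of complex V per length of exons, 0.984 ± 0.309 CPM per kb, while Atp5a1 had the highest, 396 ± 108 CPM per kb (SD over 6 libraries). With the principal transcript's length, Atp5l was at 11.7 CPM per kb, still the lowest, and the highest was Atp5b at 790 CPM per kb. Atp5k, subunit e at the same interface, was at 78, 75.3 and 71.8 CPM in CD38 pos and 89.1, 75.7 and 100 CPM in CD38 neg, with a log2 fold change of -0.23.

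The c-ring through which protons pass is encoded by 3 genes whose mature proteins are the same and whose import sequences differ. Atp5g3 was the main source, with 84.1% of the family per length of exons (79.7% to 88.8% over 6 libraries), and Atp5g1 and Atp5g2 held 10.4% and 5.47%. With the principal transcript's length, the share of Atp5g1 was 3.94%, so the order of the minor genes depends on the length used. Atp5g3 measured 400, 445 and 237 CPM in the CD38 pos libraries of pairs 1, 2 and 3 and 389, 249 and 289 CPM in the CD38 neg libraries. Atp5g1 measured 102, 67.7 and 59.2 CPM in CD38 pos and 91.6, 97.5 and 118 CPM in CD38 neg. In pair 2 they moved in opposite directions, 0.84 for Atp5g3 and -0.52 for Atp5g1 on the log2 scale, while both were lower in CD38 pos in pair 3. The log2 fold changes were 0.20 (unadjusted p 0.407) for Atp5g3 and -0.46 (unadjusted p 0.0611) for Atp5g1, and the difference between the genes was not tested. Of Atp5g2's windows, 87.4% also occur in other genes, and none of Atp5g3's do. Of Atp5g1's windows, 11.6% occur in other genes, 366 in number. The counts of Atp5g2 and Atp5g1 and the shares within the family are therefore uncertain.

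Of the genes outside the symbol rule, Atpif1 was lower in CD38 pos in all 3 pairs, at 464, 364 and 404 CPM against 487, 410 and 555 CPM, with a log2 fold change of -0.23 (SE 0.19) and an unadjusted p of 0.25. Usmg5 and Cyc1 had log2 fold changes of -0.20 and 0.17. Cycs, the cytochrome c that carries electrons from complex III to complex IV, had one of -0.07.

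The mitochondrially encoded subunits, which join the nuclear ones in complexes I, III, IV and V, were listed as 13 genes, of which 7 passed the filter. The 7 were mt-Nd1, mt-Nd2, mt-Nd4, mt-Nd5, mt-Nd6, mt-Cytb and mt-Co1. The other 6 (mt-Nd3, mt-Nd4l, mt-Co2, mt-Co3, mt-Atp6 and mt-Atp8) had at most 3 reads in any library, while the sparsest of the 7, mt-Nd6, had 3150 to 14102 reads. No mitochondrially encoded gene passed an adjusted p of 0.05. In edgeR's quasi-likelihood test 6 of the 7 had an unadjusted p under 0.05, all lower in CD38 pos, against 2.61% of all genes. Within pairs, 6 of the 7 were higher in CD38 pos in pair 1, and all 7 were lower in pairs 2 and 3. The gaps were widest in pair 2, whose CD38 pos library stood apart in these genes. How far the p-values rest on that library was not tested. The largest log2 fold change was that of mt-Cytb of complex III, at -1.02 (SE 0.35). This gene measured 9195, 2248 and 6530 CPM in CD38 pos and 7650, 8758 and 16363 CPM in CD38 neg.

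The median log2 difference of these 7 genes was 0.22, -1.68 and -0.79 in pairs 1, 2 and 3, and that of the 80 nuclear subunits was 0.13, -0.15 and -0.34. Both were above 0 in pair 1 and below it in pairs 2 and 3. Set against each other, there were 57.7, 207 and 68.7 nuclear subunit reads per 100 mitochondrially encoded reads in the CD38 pos libraries. In the CD38 neg libraries there were 62.4, 59 and 43.4. The mitochondrially encoded reads came almost wholly from the 7 genes, as the rest had at most 3 reads in any library. These ratios therefore do not cover all 13 mitochondrially encoded subunits. The high value of 207 belongs to the CD38 pos library of pair 2 that stood apart at the outset, and without it the range was 43.4 to 68.7.

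Other nuclear genes of the pathway were read from lists. Of 46 assembly factors tested, 14 had positive and 32 negative log2 fold changes, with a median of -0.07. The 1 with an unadjusted p under 0.05 was Uqcc3, an assembly factor of complex III, at 43.8, 27.1 and 37.8 CPM in CD38 pos and 37.5, 57 and 64.9 CPM in CD38 neg. Of 77 mitochondrial ribosomal protein genes tested, 25 were positive and 52 negative, with a median of -0.08, and Mrps21 alone had an unadjusted p under 0.05 (log2 fold change -0.49). In pair 3, 70 of these 77 genes were lower in CD38 pos.

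Of 18 regulators of mitochondrial gene expression tested, 8 were positive and 10 negative, and none had an unadjusted p under 0.05. Nrf1, whose letters were searched above, had a log2 fold change of 0.35 (unadjusted p 0.119), Gabpa one of -0.19, Yy1 one of -0.38 and Tfam, which binds the mitochondrial genome, one of 0.05. The coactivator gene Ppargc1a was at 1.47 to 2 CPM in all libraries. Of 12 genes for cytochrome c and coenzyme Q synthesis tested, 8 were positive and 4 negative, with a median of 0.12. No gene of these lists passed an adjusted p of 0.05.

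The subunits' differences moved with transcript length. Short genes are frequent among them: the median length of the principal transcript was 850 bases for the subunits and 2950 bases for all genes tested. In pair 3 the median log2 difference was -0.47 for the 18 subunits of up to 600 bases and -0.09 for the 8 subunits over 2000 bases. All protein-coding genes of those lengths gave -0.25 and 0.09. In pair 2 the subunits gave -0.27 and 0.38, and all protein-coding genes -0.25 and -0.03. In pair 1 they gave 0.13 and 0.02, and all protein-coding genes 0.09 and -0.02. The subunits thus followed the sign of all genes of their length class at the short end, with larger values in each pair.

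Across the 80 subunits, which are not independent replicates, Pearson's r between log2 length and the difference was -0.08, 0.34 and 0.37 in pairs 1, 2 and 3. Over all protein-coding genes tested it was -0.09, -0.11 and 0.16, with the opposite sign to the subunits in pair 2. With a correction for length fitted with the block, chosen after the pattern was seen, the subunits' median log2 fold change was -0.04 in place of -0.12. Then 33 of 80 were positive, against 51% of all genes, and none had an unadjusted p under 0.05 (4.98% of all genes did).

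**Figure D4:**
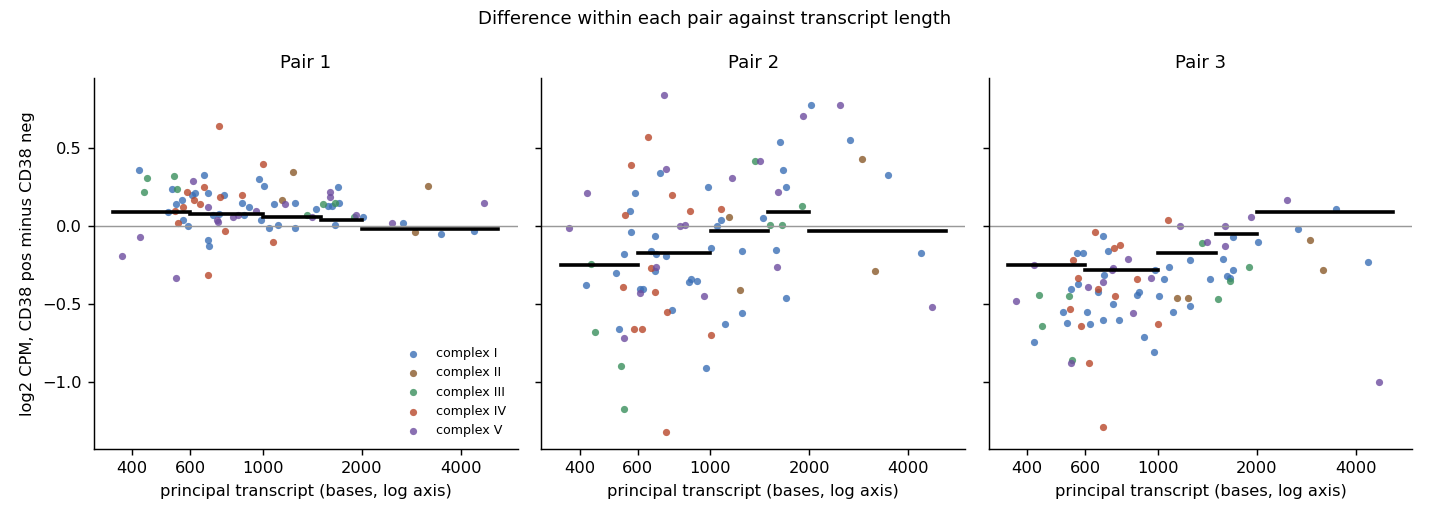
Difference in log2 CPM (CD38 pos minus CD38 neg) within each pair against the length of the principal transcript on a log axis, for each subunit that passed the filter, coloured by complex; black bars are medians of all protein-coding genes in 5 length classes. In pairs 2 and 3 the shorter subunits lie lower, and in pair 3 the black bars fall below 0 for classes up to 2000 bases.

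Seen library by library, the subunits' median level relative to each gene's mean was highest in the CD38 neg library of pair 3. It was lowest in the CD38 pos library of pair 2. The former held the highest of the 6 values for 40 of 80 subunits, against 18.8% of all genes, and the latter the lowest value for 40 of 80, against 22.6% of all genes. The median deviation from a gene's mean over libraries was 0.16, -0.19 and -0.13 on the log2 scale in the CD38 pos libraries of pairs 1, 2 and 3 and 0.02, -0.07 and 0.21 in the CD38 neg libraries. The low CD38 pos library of pair 2 was at -0.34 for the 47 subunits with principal transcripts of up to 1000 bases. For the 33 longer ones it was at -0.03, with the lowest value for 11 and the highest for 10. The summed level had another order, highest in CD38 pos of pair 1 (18340 CPM) and lowest in CD38 pos of pair 3 (14915 CPM). The median correlation between 2 subunits of the same complex over the 6 libraries, given as a description of libraries that share pairs and scaling, was 0.65 in complexes I and III, 0.36 in complex IV, 0.34 in complex V and 0.04 in complex II.

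Markers of several other cell types were likewise higher in CD38 pos in pair 1 and lower in pairs 2 and 3. Those of neutrophils and their precursors held the most reads. Their sum was 174081, 76326 and 99902 CPM in the CD38 pos libraries of pairs 1, 2 and 3 and 125060, 85559 and 136535 CPM in the CD38 neg libraries, and none of the 14 was at 0 in any library. In each pair, the library with more neutrophil marker reads also had the higher median of the subunits. With the log2 share of these markers as a covariate in place of the pair, chosen after the order was seen, the subunits' median log2 fold change was -0.10 and none passed an adjusted p of 0.05. The same order over the pairs was seen for the summed markers of monocytes and dendritic cells (log2 ratios 0.73, -0.02 and -0.17), T and NK cells (0.75, -0.39 and -1.09), erythroid cells (0.28, -0.52 and -0.55), megakaryocytes (0.77, -0.29 and -0.71) and basophils, mast cells and eosinophils (0.47, -0.30 and -0.49). It was not particular to neutrophils, whose ratios were 0.48, -0.16 and -0.45. The endothelial list (0.17, 0.51 and 0.43) and the stromal list (0.56, -0.33 and 2.08) had other orders. The B and plasma cell markers differed in another order, with 312 to 1010 CPM in CD38 pos and 1158 to 2803 CPM in CD38 neg, lower in CD38 pos in every pair. The part of other cells in the subunits' differences was not tested beyond these values.

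**Figure D5:**
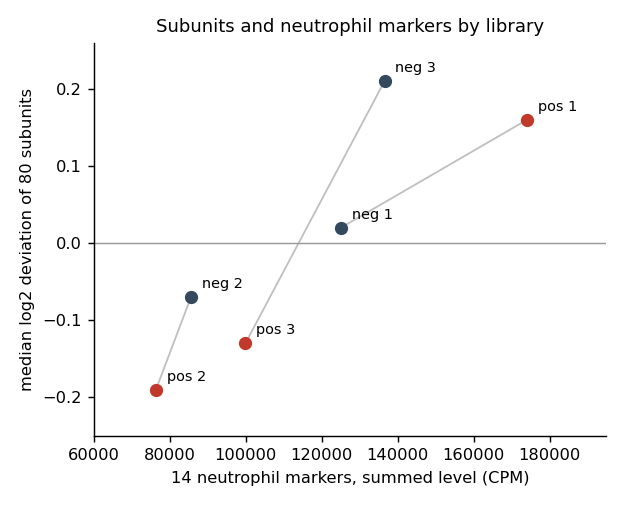
Median log2 deviation of the 80 subunits from their mean over libraries (vertical axis) against the summed level of 14 neutrophil markers in CPM (horizontal axis) for the 6 libraries, with a line joining each pair. The CD38 pos library of pair 2 is lowest on both axes, the CD38 pos library of pair 1 is highest on the horizontal axis, and the CD38 neg library of pair 3 is highest on the vertical axis.

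Dropping pairs changed how many subunits stood out. Without pair 1, 11 subunits had an unadjusted p under 0.05, all lower in CD38 pos, against 8.06% of all genes with such a p and 4.57% with such a p and a lower level. They were Ndufa1, Ndufa7, Ndufa12, Ndufb3 and Ndufb4 of complex I, Uqcrh, Uqcrb and Uqcr11 of complex III, Cox6b1 and Cox7b of complex IV, and Atp5g1 of complex V. Without pair 2 or without pair 3 there were none, against 3.32% and 6.15% of all genes (1.06% and 4.56% with a lower level). With unscaled library totals 4 subunits had such a p, namely Atp5g1, Atp5l, Cox6b1 and Uqcrh, against 4.02% of all genes. Directions of small values rested on single pairs: without pair 2, the log2 fold changes of Ndufv1, Sdha, Uqcrfs1, Cox6a1 and Atp5g3 were -0.16, -0.07, -0.02, -0.10 and -0.12, and without pair 3 those of Sdhb and Ndufs8 were 0.11 and 0.06. In none of these fits did a subunit pass an adjusted p of 0.05 in edgeR's quasi-likelihood test.

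Sequence shared with other genes limits some of these counts. No 50-base window of the principal transcript occurred in another annotated gene for 49 of the 85 subunits, while 11 had over 20% of their windows in other genes and 33 shared a window with a pseudogene. Beside Atp5g2 and Atp5l, the 11 include Cox7c at 53%, Atp5h at 47.9%, Uqcrb at 43.2%, Ndufb4 at 37%, Ndufs3 at 35.8% and Ndufs5 at 31.1%. Uqcrh had 7.83%, and Cox6b1, Ndufa10, Atp5a1 and Atp5g3 had none. The strand setting of the counting is not given in the sources used here, and exons of Ndufb6, Atp5o and Ndufa13 overlap genes on the opposite strand over 39%, 35.6% and 30% of their bases, so their counts may include reads from those genes.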

How the data were processed

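RNA was isolated from sorted HSCs and sequenced as Illumina libraries, per the labels' protocols. The authors deposited 1 table of whole-number read counts per Ensembl gene for each of the 6 libraries, with 49585 genes. Per the submitters' processing notes, the tools named are cutadapt, STAR and HTSeq 0.6.1p1 and the builds GRCm38 and mm10; the annotation release and the strand setting are not given in the sources used here. Symbols, coordinates, lengths and GC content were taken from GENCODE M21 on GRCm38.

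Genes were kept with edgeR's filterByExpr (14785 genes), scaled by TMM and tested with edgeR 4.0.16 in R 4.3.3 by the quasi-likelihood F-test over the 6 libraries, with population and pair as terms. P-values were adjusted by Benjamini-Hochberg over all genes tested, at a threshold of 0.05. Differences within a pair used log2 CPM (prior count 2). The pairs come from the series' design text, and deviations from the population means correlated within each pair (0.341, 0.118 and 0.24). With the pair as a term, p-values rest on the spread over these pairs of the difference between the populations. The procedure was tested on simulated data, where it called 54 of 100 genes changed 2-fold and 96 of 100 changed 4-fold. It also called 6 unchanged genes. The simulated counts were drawn independently for each gene, and genes with the fewest reads were not among those changed. No difference between populations was shared by many genes within a single pair, so these shares need not hold for the subunits.

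The subunits and lists were chosen with earlier results of these data known. Subunits named by rule were the 3 with the smallest p in each direction, the core subunits, the isoform families, and the highest and lowest level per length in each complex; others were named after their values were seen, and 1 core subunit is not reported by itself here. Alternatives were a fit without the block, DESeq2 1.42.0, limma-voom (limma 3.58.1), DESeq2 size factors, unscaled totals, other filters and thresholds, a GC correction, other lengths and leaving out each pair; the length correction of counts, the neutrophil covariate and the principal transcript's length were added after seeing the data. Reads carry no molecular identifiers, so floors cover counting error only.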

Additional observations from a re-analysis of the deposited data

How the results depend on the processing

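No subunit passed an adjusted p of 0.05 under any of the 14 alternatives run, and the median log2 fold change of the 80 subunits stayed between -0.24 and -0.01 (main value -0.12). The replicate block mattered for all genes: 2 genes passed with it and 0 without it (417 at an unadjusted p under 0.05); no subunit passed in either fit. The count over all genes was 11 with DESeq2, 7 with DESeq2 size factors, 0 with unscaled totals, 80 with no filter, 13 with a mean of at least 10 counts, 7 with the GC correction, 1 with the length correction, 0 with the neutrophil covariate (447 at an unadjusted p under 0.05), 7 at an adjusted p of 0.1, and 3 to 25 without 1 pair. 
Of 494 alternative values for the 38 named subunits with a fold change, 462 kept their direction and their side of the threshold and 32 reversed, most near 0; the cause was not tested. Leaving out each pair in turn moved the log2 fold change across 0 for Atp5g2 (-0.12 to 0.20), Atp5g3 (-0.12 to 0.44), Cox4i1 (-0.08 to 0.08), Cox4i2 (-0.75 to 0.24), Cox5b (-0.12 to 0.15), Cox6a1 (-0.10 to 0.26), Cox7a2l (-0.03 to 0.07), Cox8a (-0.10 to 0.04), Ndufa10 (-0.02 to 0.42), Ndufs1 (0.00 to 0.28), Ndufs7 (-0.12 to 0.15), Ndufs8 (-0.30 to 0.06), Ndufv1 (-0.16 to 0.18), Sdha (-0.07 to 0.20), Sdhb (-0.20 to 0.11), Uqcrc1 (-0.17 to 0.08), Uqcrc2 (-0.10 to 0.09), Uqcrfs1 (-0.02 to 0.24) and Uqcrq (-0.23 to 0.08). The other reversals were Cox4i1 -0.01, Cox7a2l 0.00, Ndufs7 -0.02 and Ndufv1 0.00 with unscaled totals; Cox4i1 -0.02, Ndufs7 -0.03 and Ndufv1 -0.01 with the GC correction; Cox5b 0.09, Cox8a 0.11 and Uqcr10 0.02 with the length correction; and Cox5b 0.01 and Cox7a2l 0.00 with the neutrophil covariate. The mean log2 ratio of the summed level over pairs ranged, leaving out each pair, from -0.19 to 0.05 for complex I, -0.08 to 0.13 for complex II, -0.30 to -0.01 for complex III, -0.13 to 0.07 for complex IV and -0.01 to 0.27 for complex V, and for complex V the mean of its genes' log2 CPM gave -0.06. Of 72 levels per length (with the longest or the principal transcript's length, or unscaled totals), 18 moved by more than their spread.

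With 3 pairs, the median 95% interval of a subunit reached 0.42 either side of its estimate on the log2 scale, before any adjustment for the number of genes. Genes with few reads (Cox6a2, Cox4i2, Atp5l) had wider intervals, and sequence shared with pseudogenes limits Atp5l and Atp5g2 at any depth.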
